A study of Mus musculus with 6 samples.

Results

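The genes described here were 10 genes on chromosome 3 that lay within 20 Mb of *Fmo5* and whose RNA differed between the livers of Fmo5-/- and WT mice: *Asic5*, *Map9*, *Cd1d2*, *Arhgef2*, *Tchh*, *Them4*, *Tnfaip8l2*, *Gm4349*, *Plekho1* and *Gm20633*. They were chosen by that difference, so the difference itself is given as a description, without a test. They were 10 of 54446 genes listed in the count files, of which 16734 passed the filter on low counts, and 10 of the 428 tested genes within 20 Mb of *Fmo5*. RNA was sequenced from the liver of 3 WT and 3 Fmo5-/- mice, with 1 library per mouse, to find which genes the loss of FMO5 alters. The labels give a C57BL/6 background for both groups, and the study's methods describe male mice on standard chow, the Fmo5-/- line having been made on C57BL/6J. The study's text describes the mice of both groups as adults of a single age. The Fmo5-/- group is 1 line lacking the gene in every tissue, and bulk liver was measured, so fewer cells of a type and less RNA per cell cannot be told apart.

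*Fmo5* encodes flavin-containing monooxygenase 5, an enzyme abundant in hepatocytes that oxygenates carbonyl compounds. Its neighbours on chromosome 3 do unrelated work. They include an ion channel gated by bile acids, a lipid-presenting molecule of the immune system, regulators of the cytoskeleton, a hair protein, a mitochondrial thioesterase and regulators of immune and growth signalling, together with non-coding RNAs.

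The normalised read count of *Fmo5*, which here is the raw count brought to the average TMM-scaled size of the 6 libraries, was 39808, 37405 and 30240 in the 3 WT livers and 1071, 1102 and 1194 in the 3 Fmo5-/- livers. The genotypes did not overlap and the log2 fold change was -5.00 ± 0.14 (SE, n = 3 per group). The libraries held 44886286 to 52338675 counts on genes, and a count of 0 allows a level of up to 0.0564 to 0.0686 CPM (counts per TMM-scaled library size), which covers counting error only. Summed hepatocyte markers were 5286336 to 6777366 normalised counts in WT and 5406450 to 6667584 in Fmo5-/- livers. Of the 16734 tested genes, edgeR's quasi-likelihood test at a Benjamini-Hochberg adjusted p under 0.05 called 113 (0.675%) higher and 116 (0.693%) lower in Fmo5-/- livers, 229 (1.37%) in all.

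All 10 genes lie before *Fmo5*, that is at lower coordinates on mouse genome build mm10, at distances of 1.38 Mb (*Gm20633*) to 15.6 Mb (*Asic5*). Of them 9 were higher and 1, *Them4*, was lower in Fmo5-/- livers, all 10 were among the called genes, and in none did the genotypes overlap. Since the genes were selected on this contrast, nothing is read from those counts. With 1 library left out, edgeR called between 2 (without the first Fmo5-/- library) and 10 (without the third) of them. In those fits edgeR called 31 and 763 genes in all. Over all tested genes, 13.9% were higher and 13.5% lower in every Fmo5-/- library than in every WT library. 7 lie on the + strand and 3 on the - strand. The absolute log2 fold change was above 1 for 7 of the 10, and had a median of 1.5 over the 10 genes. These sizes too were favoured by the selection and are not compared with other genes. All 10 passed the filter, but *Gm4349* passed through the Fmo5-/- libraries alone and *Cd1d2* reached the filter's level in 1 WT library, so these 2 genes could enter the tested set only by being higher in Fmo5-/- livers.

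**Figure D1:**
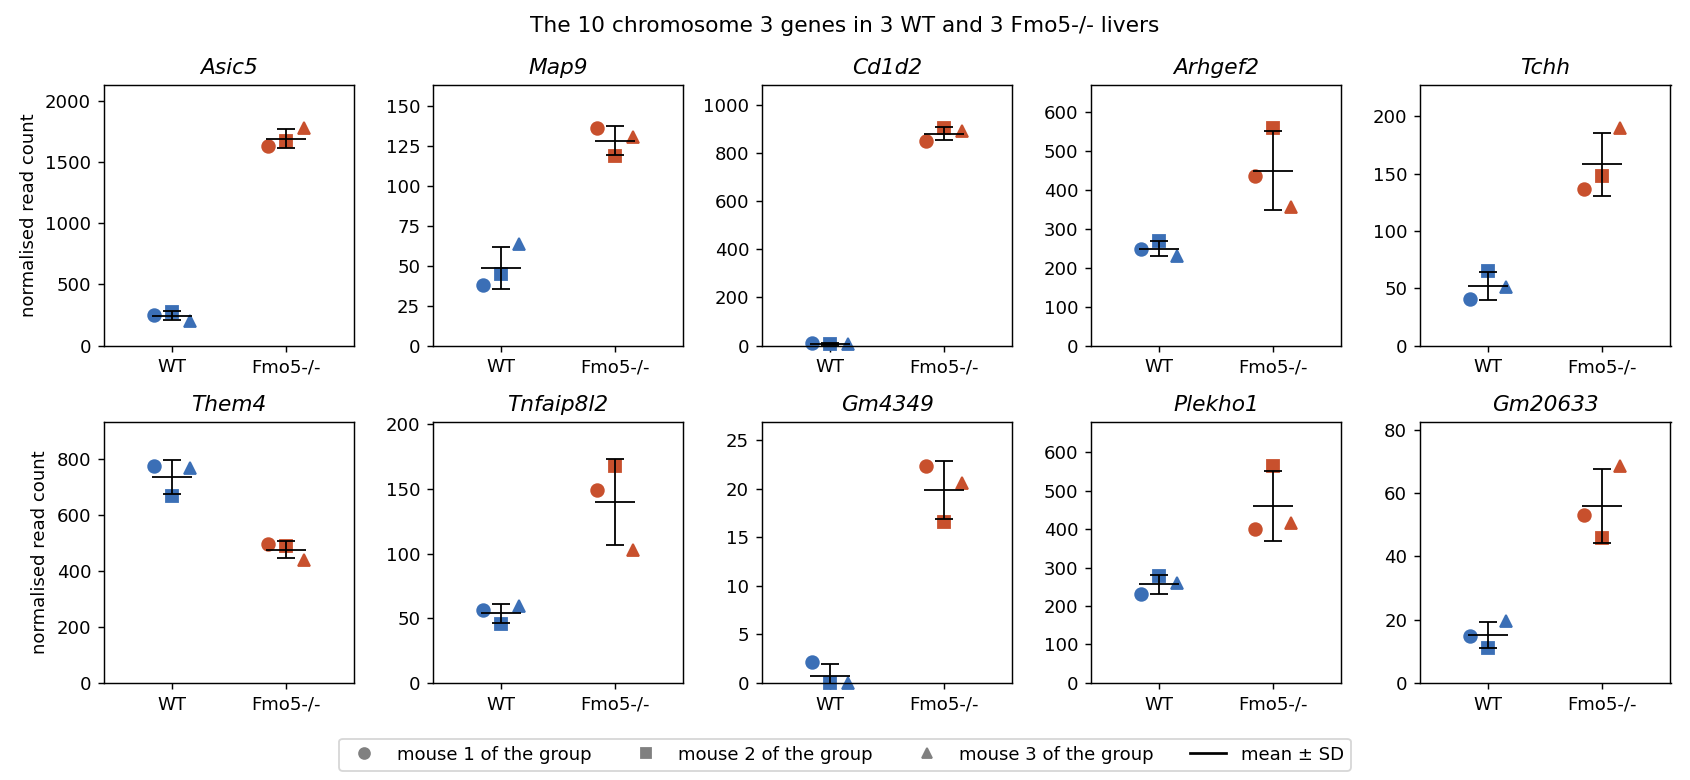
Normalised read count (y axis, starting at 0) of each of the 10 genes in the 3 WT and 3 Fmo5-/- livers (x axis), with points for single mice and bars for the mean ± SD. The genotypes do not overlap in any panel, *Them4* is the 1 gene with lower values in Fmo5-/- livers, and *Cd1d2* and *Gm4349* are close to 0 in WT.

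The difference was greatest for *Cd1d2*. CD1d molecules present lipids to natural killer T (NKT) cells, and mice carry the paired genes *Cd1d1* and *Cd1d2*. *Cd1d2* (ENSMUSG00000041750.13, chr3:86986551-86989780, + strand) is annotated in GENCODE vM21 as a polymorphic pseudogene, a gene that is intact in some individuals or strains and disrupted in others. Its coding part in the reference genome had 1010 bases against 1011 in *Cd1d1*, 96.8% of the aligned bases were identical, and 1 base of *Cd1d1* had no partner. The stretch around that base is shown because it is where the reading frames of the reference copies part, with the unpaired base of *Cd1d1* in capitals (GENCODE vM21 transcripts, 5′ to 3′).
Cd1d2: gtgtcatgtctctggttctacccaaaacct
Cd1d1: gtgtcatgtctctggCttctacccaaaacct

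The copies can be told apart by reads that span their 32 differing bases. The 75-base stretch below, as long as a read, is from exon 3 of each gene and is shown because it holds 9 of the differences, in capitals (*Cd1d2*, chr3:86987598-86987672, + strand, and *Cd1d1*, chr3:86998221-86998295, - strand, GRCm38).
Cd1d2: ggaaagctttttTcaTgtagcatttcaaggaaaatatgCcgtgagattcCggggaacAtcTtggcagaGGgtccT
Cd1d1: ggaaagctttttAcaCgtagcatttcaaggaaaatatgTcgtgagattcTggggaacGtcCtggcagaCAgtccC
Of the 1600 windows of 75 bases in *Cd1d2* transcripts, 364 (22.8%) also occur in *Cd1d1*, and reads from those windows map to both genes.

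The normalised read count of *Cd1d2* was 10.6, 4.46 and 5.11 in WT livers and 850, 903 and 890 in Fmo5-/- livers. The lowest Fmo5-/- value was 80.2 times the highest WT value. The mean rose from 6.72 ± 3.37 to 881 ± 28.0 (SD, n = 3 per group), a log2 fold change of 7.0 ± 0.21 (SE). *Cd1d1*, which lies 6.05 kb beyond *Cd1d2*, had 12289 ± 1318 normalised counts in WT and 12114 ± 712 in Fmo5-/- livers (SD, n = 3 per group). Its log2 fold change was -0.021 ± 0.10 (SE, edgeR adjusted p = 0.928). Per kilobase of exon, *Cd1d2* went from 0.0902 to 11.8 CPM, from the 6.05th to the 83.7th percentile of the level per kilobase over all tested genes.

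The deposited files also count the reads on each strand separately. Over tested genes a median of 49.8% of single-strand counts fell on the first strand, with 42.2% and 57.1% at the 5th and 95th percentiles. In Fmo5-/- livers *Cd1d2* had 1086 first-strand and 1768 second-strand counts, 38.1% on the first strand, which lies below that range. In WT livers the 3 libraries together held 24 first-strand and 23 second-strand counts but 19 when both strands were counted together. The log2 fold change of *Cd1d2* was 5.32 on the first strand and 6.08 on the second.

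Of the other genes of CD1d loading and presentation, 10 were listed and tested, with 1 called by edgeR (1.37% over all genes), 3 (*B2m*, *Mttp* and *Npc2*) at an unadjusted p under 0.05 (21.8% over all genes) and 1 called by DESeq2 (8.93% of the 15634 genes to which it gave an adjusted p). The gene called by both was *Mttp*, the microsomal transfer protein that lipidates both apolipoprotein B and CD1d, on chromosome 3 beyond 20 Mb from *Fmo5*. It fell from 16724 ± 1191 to 11108 ± 1431 normalised counts (SD, n = 3 per group), a log2 fold change of -0.59 ± 0.11 (SE, edgeR adjusted p = 0.047). The median log2 fold change of the list was 0.026, against 0.0058 over all tested genes. *B2m*, the light chain with which CD1d pairs, had a log2 fold change of 0.24 ± 0.10 (SE, edgeR adjusted p = 0.215), and *Npc2*, a lysosomal lipid transfer protein gene, one of 0.25 ± 0.096 (SE, edgeR adjusted p = 0.176). Both were higher in each Fmo5-/- liver than in each WT liver, as were 13.9% of all tested genes. Markers of T, NK and NKT cells, of which the NKT cells are those that CD1d molecules address, are given below with the immune genes.

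*Asic5*, also known as the bile acid-sensitive ion channel, encodes a sodium channel of the ASIC and ENaC family (ENSMUSG00000028008.10, chr3:81982290-82021233, + strand). Its normalised read count was 249.9, 277 and 202 in WT livers and 1631, 1671 and 1778 in Fmo5-/- livers. The groups were far apart, the lowest Fmo5-/- value being 5.89 times the highest WT value. The mean was 243 ± 37.6 in WT and 1694 ± 75.8 in Fmo5-/- livers (SD, n = 3 per group), and the log2 fold change was 2.80 ± 0.12 (SE). Per kilobase of exon the level went from 2.16 to 15 CPM, from the 51.9th to the 86.6th percentile of tested genes, the highest level of the 10 genes in Fmo5-/- livers.

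None of the 75-base windows of *Asic5* occurs in transcripts of another gene. *Asic5* is known from bile duct cells. The summed level of 7 cholangiocyte markers was 2654 to 4386 normalised counts in WT and 3110 to 3515 in Fmo5-/- livers. All 7 were tested, with 0 called by edgeR (1.37% over all genes), 0 at an unadjusted p under 0.05 (21.8%) and 0 called by DESeq2 (8.93%). Among relatives of *Asic5*, of 7 genes for ASIC and ENaC subunits 3 were tested. Of these 0 were called by edgeR (1.37% over all genes), 0 had an unadjusted p under 0.05 (21.8%) and 0 were called by DESeq2 (8.93%). *Asic4* had no count in any library. *Asic1* had 161 ± 37.5 normalised counts in WT and 193 ± 6.35 in Fmo5-/- livers (SD, n = 3 per group). *Scnn1a*, which encodes the alpha subunit of the epithelial sodium channel, had 2314 ± 438 normalised counts in WT and 2646 ± 338 in Fmo5-/- livers (SD, n = 3 per group).

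RefSeq promoters (GRCm38.p6, 250 bases before to 50 bases after a start) were at hand for 7 of the 10 genes. Among 32851 promoters of this length, searched on both strands, 13.6% held TATAAA, 37.4% held CCAAT and 35.7% held GGGCGG. The promoters of *Asic5*, among the genes with higher RNA, and *Them4*, the gene with lower RNA, are shown because these genes stand for either direction of difference, with all matches in capitals. Here *Asic5* is chr3:81996672-81996971, + strand, and *Them4* is chr3:94309882-94310181, + strand.
Asic5: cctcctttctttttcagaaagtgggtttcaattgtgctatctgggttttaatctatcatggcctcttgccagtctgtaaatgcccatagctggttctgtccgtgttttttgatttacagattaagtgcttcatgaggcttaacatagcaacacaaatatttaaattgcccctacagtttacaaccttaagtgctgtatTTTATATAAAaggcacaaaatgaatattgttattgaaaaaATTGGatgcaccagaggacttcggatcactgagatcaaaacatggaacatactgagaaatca
Them4: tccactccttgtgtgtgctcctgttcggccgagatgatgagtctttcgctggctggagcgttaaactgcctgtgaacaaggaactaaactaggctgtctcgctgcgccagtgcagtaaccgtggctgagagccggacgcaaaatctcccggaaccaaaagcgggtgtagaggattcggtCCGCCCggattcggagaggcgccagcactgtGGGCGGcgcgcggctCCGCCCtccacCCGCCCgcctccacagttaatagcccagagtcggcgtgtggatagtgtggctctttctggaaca
The *Asic5* promoter has 36.3% G and C and 2 CpG, with TATAAA at 48 to 43 bases before the start, an overlapping match on the opposite strand, and CCAAT on the opposite strand. That of *Them4* has 60.3% G and C, 25 CpG and 4 matches to GGGCGG, and the median of all promoters is 52.7% with 7 CpG. The *Asic5* promoter belongs to a start inside the GENCODE gene and not at its first base. A match is a description of the letters and not a binding site. Among the 7 genes, *Plekho1* was richest at 81.3% and *Tchh* poorest at 28.7%.

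*Map9* and *Arhgef2* encode proteins that act on microtubules. *Map9* (chr3:82358044-82395268, + strand) encodes a microtubule-associated protein needed for the mitotic spindle and cilia. Its normalised read count was 38.1, 44.6 and 63.4 in WT livers and 136, 118 and 131 in Fmo5-/- livers. The lowest Fmo5-/- value was 1.87 times the highest WT value, with a log2 fold change of 1.39 ± 0.22 (SE, n = 3 per group).

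*Arhgef2* (chr3:88605966-88648052, + strand) encodes GEF-H1, an activator of the GTPase RhoA that is released from microtubules. In normalised read counts it had 248, 269 and 231 in WT livers and 435, 558 and 355 in Fmo5-/- livers. The groups did not overlap but came close, the lowest Fmo5-/- value being 1.32 times the highest WT value, the smallest such gap of the 9 higher genes. The log2 fold change was 0.85 ± 0.17 (SE, n = 3 per group).

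The wider microtubule and RhoA lists are read against the shares over all genes, 1.37% called by edgeR, 21.8% at an unadjusted p under 0.05 and 8.93% called by DESeq2. Of 12 microtubule-associated protein genes 10 were tested, with 0 called by edgeR, 2 at an unadjusted p under 0.05 and 1, *Map1s*, called by DESeq2. Of 13 RhoA pathway genes 13 were tested, with 0 called by edgeR, 3 at an unadjusted p under 0.05 and 2, *Arhgdia* and *Cgn*, called by DESeq2. The median log2 fold change was 0.030 and -0.033 in these lists, against 0.0058 over all tested genes. *Cgn* encodes cingulin, a tight junction protein that binds GEF-H1, and lies 2.84 Mb before *Fmo5*. It had 2994 ± 590 normalised counts in WT and 1970 ± 50.5 in Fmo5-/- livers (SD, n = 3 per group, edgeR adjusted p = 0.0633).

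*Tchh* encodes trichohyalin, a structural protein of the hair follicle and of cornified epithelia (chr3:93442330-93449077, + strand), in the epidermal differentiation complex. Its normalised read count was 40.2, 64.7 and 51.1 in WT livers and 137, 148 and 189 in Fmo5-/- livers, so that the lowest Fmo5-/- value was 2.12 times the highest WT value, with a log2 fold change of 1.6 ± 0.23 (SE, n = 3 per group). The level was low in both groups, with 0.183 and 0.556 CPM per kilobase.

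Markers of skin and hair follicle cells were set beside *Tchh*. Of 6 keratinocyte and hair follicle markers, *Krt5* and *Krt71* had no count in any library, 1 (*Krt10*, with 183 ± 26.3 normalised counts in WT and 146 ± 19.8 in Fmo5-/- livers, SD, n = 3 per group) was tested, and the summed level was 156 to 208 normalised counts in WT and 129 to 169 in Fmo5-/- livers. None of these was called by edgeR or DESeq2, and 0 had an unadjusted p under 0.05. Of 19 genes of the epidermal differentiation complex and the S100 family next to it, 9 were tested, with 0 called by edgeR (1.37% over all genes), 4 at an unadjusted p under 0.05 (21.8%) and 3, *Lor*, *S100a9* and *S100a13*, called by DESeq2 (8.93%). *Lor*, which encodes loricrin of the cornified envelope, had 85.5 ± 30.1 normalised counts in WT and 44.6 ± 7.57 in Fmo5-/- livers (SD, n = 3 per group), and *S100a13* likewise had a lower mean in Fmo5-/- livers, with a log2 fold change of -0.42 ± 0.12 (SE, edgeR adjusted p = 0.101). *S100a8* and *S100a9*, which encode the subunits of calprotectin and stand among the neutrophil markers too, had higher means there, like *Tchh*, with log2 fold changes of 1.29 ± 0.45 and 1.26 ± 0.43 (SE, edgeR adjusted p = 0.149 and 0.146).

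*Them4* (chr3:94310089-94332540, + strand) encodes an acyl-CoA thioesterase of mitochondria that also binds the kinase AKT. It was the 1 gene of the 10 with lower RNA in Fmo5-/- livers. In normalised read counts it had 775, 666 and 767 in WT livers and 497, 489 and 439.8 in Fmo5-/- livers. The lowest WT value was 1.34 times the highest Fmo5-/- value. The mean fell by 35.4%, from 736 ± 60.7 to 475 ± 30.8 (SD, n = 3 per group), a log2 fold change of -0.63 ± 0.10 (SE), the smallest in absolute size among the 10. Per kilobase, *Them4* had the highest level of the 10 genes in WT livers, at 3.75 ± 0.309 CPM (SD).

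Genes related to *Them4* are given beside the shares over all genes of 1.37% called by edgeR, 21.8% at an unadjusted p under 0.05 and 8.93% called by DESeq2. Of 10 genes for THEM thioesterases and the AKT pathway 9 were tested, with 0 called by edgeR, 1 (*Them6*) at an unadjusted p under 0.05 and 0 called by DESeq2, and a median log2 fold change of 0.016. *Them5*, the neighbouring paralogue, was below the filter, with 3.53 ± 1.58 normalised counts in WT and 9.44 ± 0.336 in Fmo5-/- livers (SD, n = 3 per group).

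*Tnfaip8l2* and *Plekho1* are genes of signalling. *Tnfaip8l2* encodes TIPE2, a regulator that restrains immune activation and is best known from lymphocytes and myeloid cells (chr3:95139521-95142360, - strand). Normalised read counts were 56.1, 45.8 and 59.3 in WT livers and 149, 168 and 103 in Fmo5-/- livers. The third Fmo5-/- liver was lowest in its group but was 1.74 times the highest WT value, and the log2 fold change was 1.38 ± 0.23 (SE, n = 3 per group).

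*Plekho1* encodes CKIP-1, a scaffold with a pleckstrin homology domain that binds casein kinase 2, actin capping protein and the ubiquitin ligase SMURF1 (chr3:95988429-95996001, - strand). Normalised read counts were 231, 279 and 259.7 in WT livers and 399.6, 565 and 415 in Fmo5-/- livers. The lowest Fmo5-/- value was 1.43 times the highest WT value, and the log2 fold change was 0.84 ± 0.16 (SE, n = 3 per group).

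For the families of these proteins, the shares over all genes are 1.37% called by edgeR, 21.8% at an unadjusted p under 0.05 and 8.93% called by DESeq2. Of the other TNFAIP8 family genes 3 were tested, with 0 called by edgeR, 1 (*Tnfaip8*) at an unadjusted p under 0.05 and 0 called by DESeq2. Of 8 relatives and partners of *Plekho1*, 8 were tested, with 1 called by edgeR, 2 (*Plekho2* and *Capza1*) at an unadjusted p under 0.05 and the same 2 called by DESeq2. The gene called by edgeR was *Capza1*, an actin capping protein subunit that itself lies on chromosome 3, 7.17 Mb beyond *Fmo5*. It fell from 342 ± 29.2 to 137 ± 8.44 normalised counts (SD, n = 3 per group), a log2 fold change of -1.32 ± 0.13 (SE, edgeR adjusted p = 0.00391). *Plekho2*, the paralogue of *Plekho1*, had 200.1 ± 38.2 normalised counts in WT and 336 ± 103 in Fmo5-/- livers (SD, n = 3 per group, edgeR adjusted p = 0.123).

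The summed levels of 3 lists of immune cell markers, for macrophages, T, NK and NKT cells and neutrophils, were higher in every Fmo5-/- liver than in every WT liver. Over all genes edgeR called 1.37%, 21.8% had an unadjusted p under 0.05 and DESeq2 called 8.93%. The summed level of 7 Kupffer cell and macrophage markers was 10232, 10512 and 8824 normalised counts in WT and 25310, 24231 and 13850 in Fmo5-/- livers, with 6 of 7 genes not overlapping (27.4% over all tested genes, either direction), 1 (*Clec4f*) called by edgeR, 7 at an unadjusted p under 0.05, 6 called by DESeq2 and none at 0. Of these markers *Cd5l* itself lies within 20 Mb of *Fmo5*, 10.3 Mb before it. It had 2695 ± 414 normalised counts in WT and 6430 ± 1903 in Fmo5-/- livers (SD, n = 3 per group). The summed level of 10 T, NK and NKT cell markers was 674, 864 and 887 in WT and 1084, 2006 and 1205 in Fmo5-/- livers, with 5 of 10 not overlapping, 0 called by edgeR, 6 at an unadjusted p under 0.05, 4 called by DESeq2 and none at 0. The markers that overlapped between the genotypes were *Cd3g*, *Cd4*, *Klrb1c*, *Ncr1* and *Zbtb16*. The 5 neutrophil markers summed to 141 to 246 in WT and 295 to 584 in Fmo5-/- livers, 3 of them were tested, 1, *Csf3r*, was called by edgeR, 3 had an unadjusted p under 0.05 and 2 were called by DESeq2, while *Ly6g* had no count in WT livers. *Tnfaip8l2*, *Arhgef2* and *Plekho1* were also higher in each Fmo5-/- liver than in each WT liver, as were 13.9% of all tested genes. All 9 higher genes shared this and were selected on this contrast, so nothing is read from it. The order of the 3 Fmo5-/- livers was not the same for all of these lists and the 3 genes. The part of immune cell numbers in the differences of these genes was not tested.

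The remaining lists overlapped between the genotypes. B cell markers summed to 212 to 337 normalised counts in WT and 321 to 390.1 in Fmo5-/- livers, endothelial markers to 6502 to 7604 and 7109 to 7562, stellate cell markers to 9778 to 11615 and 9711 to 13492, and erythroid markers to 8918 to 13046 and 8877 to 17783. All genes of these lists were tested, 5 for B cells, 5 endothelial, 5 stellate and 4 erythroid, as were the 6 hepatocyte markers. Among them edgeR called 0 (1.37% over all genes) and DESeq2 called 0 (8.93%). *Stab2*, *Des* and *Alas2* had an unadjusted p under 0.05 in edgeR, as had 21.8% of all tested genes.

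**Figure D2:**
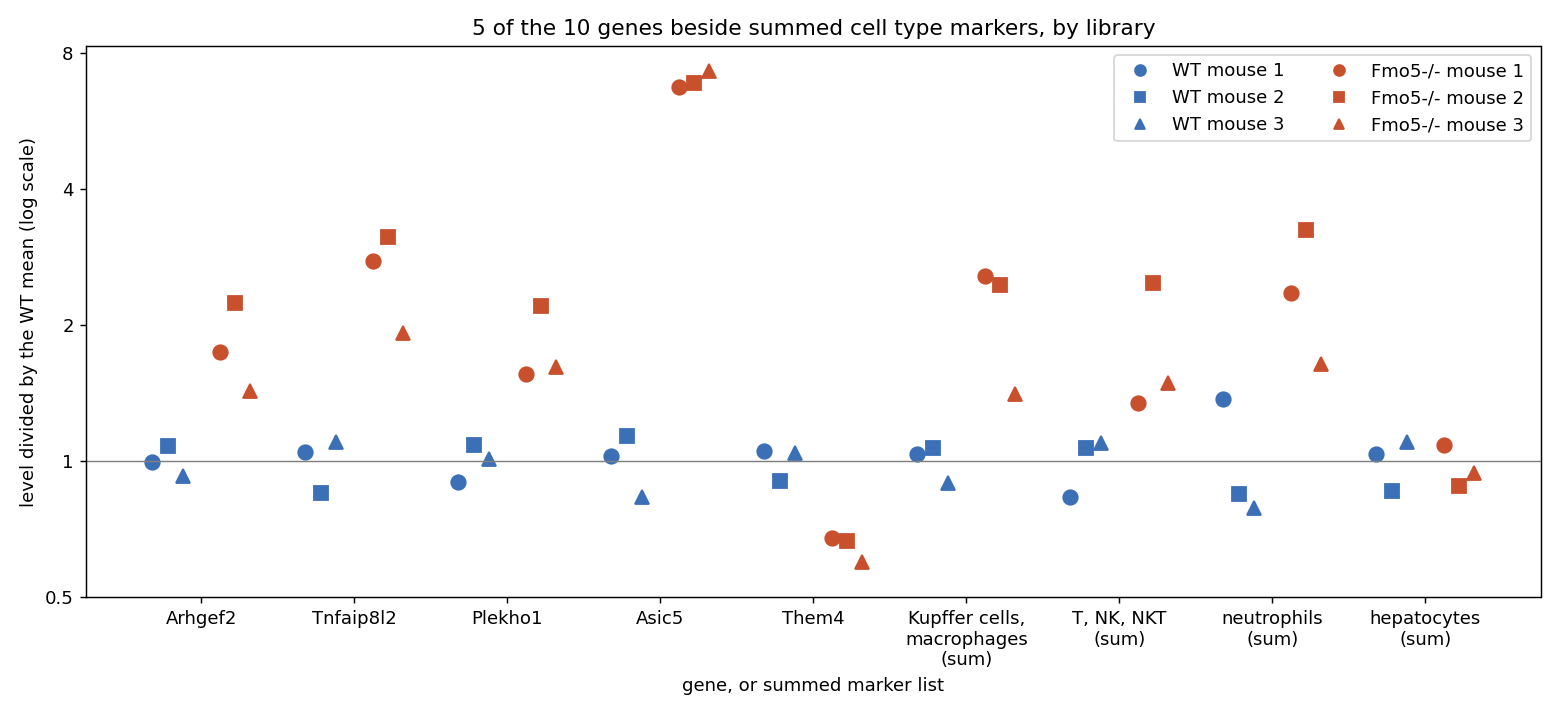
Level of *Arhgef2*, *Tnfaip8l2*, *Plekho1*, *Asic5* and *Them4* and of 4 summed marker lists (x axis) in each library, divided by the mean of the 3 WT libraries (y axis, log scale). The Fmo5-/- livers lie above the WT livers for each gene but *Them4*, where they lie below, and for the 3 immune sums, and overlap with them for hepatocyte markers.

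*Gm4349* and *Gm20633* are non-coding RNA genes. *Gm4349* is annotated as a long intergenic non-coding RNA (chr3:95427671-95431087, + strand). It had 2, 0 and 0 raw counts in WT livers and 24, 18 and 21 in Fmo5-/- livers. With 63 counts against 2, the ratio after correction for library size was 27.9, with an exact 95% interval from counting error of 7.41 to 235. Counted by strand, an alternative chosen after seeing the data, the second strand alone had 29 counts against 4, a ratio of 6.42 (2.26 to 25.1) that lies below the interval over both strands, and the first had 34 against 0, at least 10-fold higher when set against 3 counts over the WT group. The WT counts of the single strands, 0 and 4, do not sum to the 2 over both. The fitted log2 fold change of 4.58 ± 0.67 (SE, n = 3 per group) depends on the prior count that edgeR adds and is no bound. Of its 75-base windows 16.8% also occur in *Gm37500* or *Setdb1* transcripts. *Setdb1* lies 70.5 kb away and had 1533 ± 113 normalised counts in WT and 1288 ± 45.4 in Fmo5-/- livers (SD, n = 3 per group, edgeR adjusted p = 0.129).

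*Gm20633* is annotated as an antisense RNA (chr3:96243550-96246380, - strand) in the histone cluster of chromosome 3. It shares 586 exon bases with the histone H2A gene *Hist2h2aa1* and 827 with *Gm20634*, both on the opposite strand. Its normalised read count was 14.8, 11.2 and 19.4 in WT livers and 53.1, 45.9 and 68.7 in Fmo5-/- livers, without overlap and with a log2 fold change of 1.87 ± 0.30 (SE, n = 3 per group).

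This difference did not hold on each strand. The first-strand counts of *Gm20633* were 22, 26 and 20 in WT and 24, 20 and 30 in Fmo5-/- livers, which overlapped, with a log2 fold change of -0.031. The second-strand counts were 13, 9 and 15 in WT and 34, 31 and 41 in Fmo5-/- livers, with a log2 fold change of 1.35. Summed over WT libraries the strands held 68 and 37 counts, more than the 43 counted for both strands together, while in Fmo5-/- libraries they held 74 and 106 against 177. Reads counted without strand that fall where genes overlap are assigned to neither, and 35.0% of the 75-base windows of *Gm20633* also occur in other transcripts, mostly of H2A genes. Its level is therefore uncertain.

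**Figure D3:**
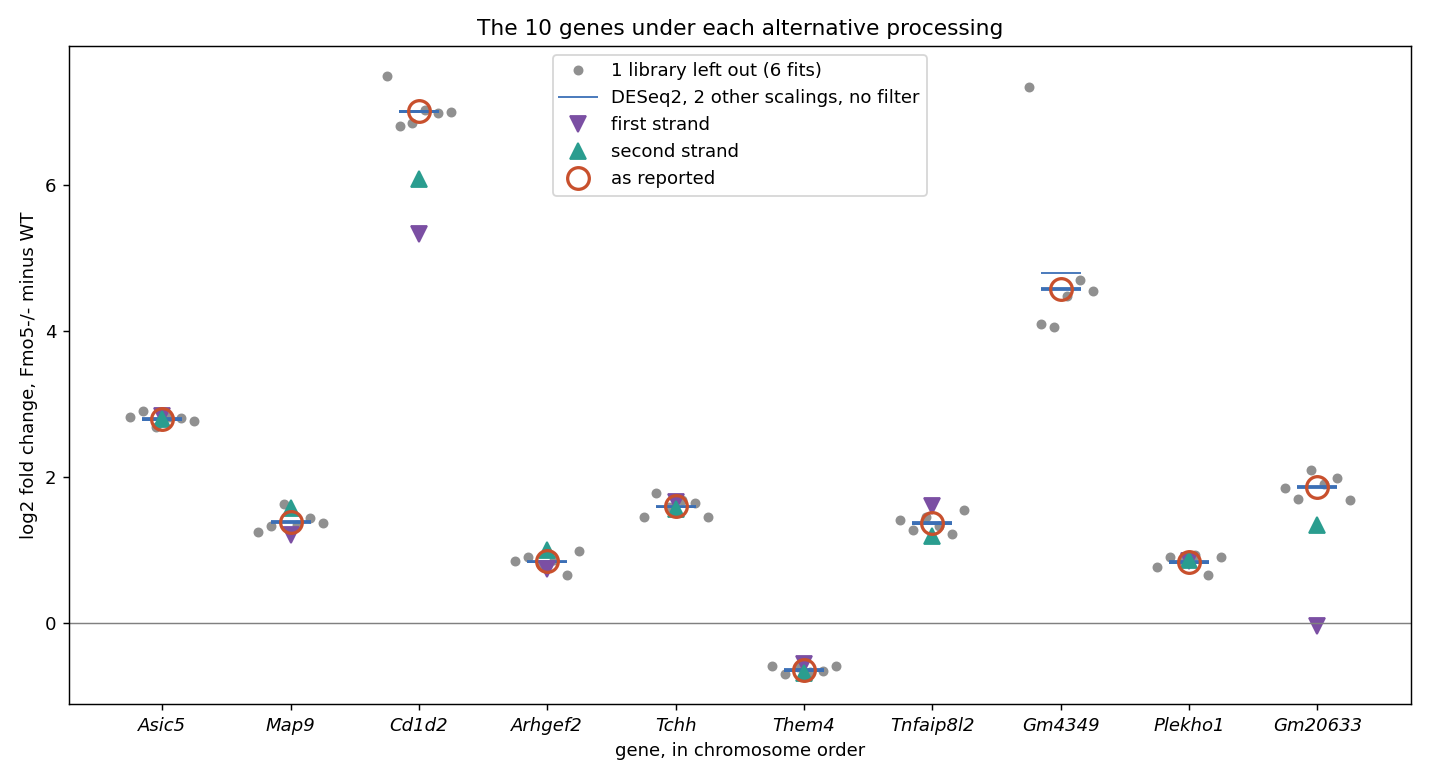
Log2 fold change, Fmo5-/- minus WT (y axis), of each gene (x axis, in chromosome order) as reported and under each other processing. *Asic5*, *Map9*, *Arhgef2*, *Tchh*, *Them4*, *Tnfaip8l2* and *Plekho1* moved by less than the spread between replicates in all 12 alternatives, *Cd1d2* fell to 5.32 on the first strand, *Gm4349* reached 7.34 when the first WT library was left out, and *Gm20633* was at -0.031 on the first strand.

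Compared per kilobase of exon, the order of levels in WT livers was *Them4*, *Plekho1* and *Asic5* at 3.75, 2.42 and 2.16 CPM, then *Tnfaip8l2* and *Arhgef2* at 0.981 and 0.519, then *Tchh*, *Map9*, *Gm20633* and *Cd1d2* at 0.183, 0.150, 0.110 and 0.0902, with *Gm4349* last at 0.00565. The levels of *Plekho1* and *Asic5* had SDs of 0.228 and 0.334, so these neighbours did not differ beyond their spread. The same was true of each neighbouring pair among *Tchh*, *Map9*, *Gm20633* and *Cd1d2*, with SDs of 0.0432, 0.0403, 0.03 and 0.0452. In Fmo5-/- livers the order became *Asic5* and *Cd1d2* at 15 and 11.8 CPM per kilobase, then *Plekho1* at 4.34, *Tnfaip8l2* at 2.56 and *Them4* at 2.42, of which the last pair, with SDs of 0.61 and 0.157, did not differ beyond their spread.

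The genes directly beside the 10 were examined next. For each gene the nearest 2 tested genes on each side were taken, 36 distinct genes at gaps of 0.003 to 1013 kb. edgeR called 0 of them (1.37% over all genes), 8 had an unadjusted p under 0.05 (21.8%), and DESeq2 called 3 (8.93%), *Tdo2*, *Scnm1* and *Cers2*, all lower in Fmo5-/- livers. Among the 36, 15 had no overlap between WT and Fmo5-/- livers (27.4% over all tested genes), 4 higher (13.9%) and 11 lower (13.5%) in Fmo5-/- livers. Their log2 fold changes ran from -0.69 to 1.05 with a median of -0.058. *Tdo2*, the tryptophan dioxygenase of hepatocytes, ends 6.09 kb before *Asic5* and had 84063 ± 10828 normalised counts in WT and 60279 ± 3593 in Fmo5-/- livers (SD, n = 3 per group). Its log2 fold change was -0.48 ± 0.11 (SE, edgeR adjusted p = 0.0709), opposite in sign to that of *Asic5*. *Scnm1*, 5.51 kb from *Tnfaip8l2*, had a log2 fold change of -0.51 ± 0.11 (SE, edgeR adjusted p = 0.062), also opposite to its neighbour.

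**Figure D4:**
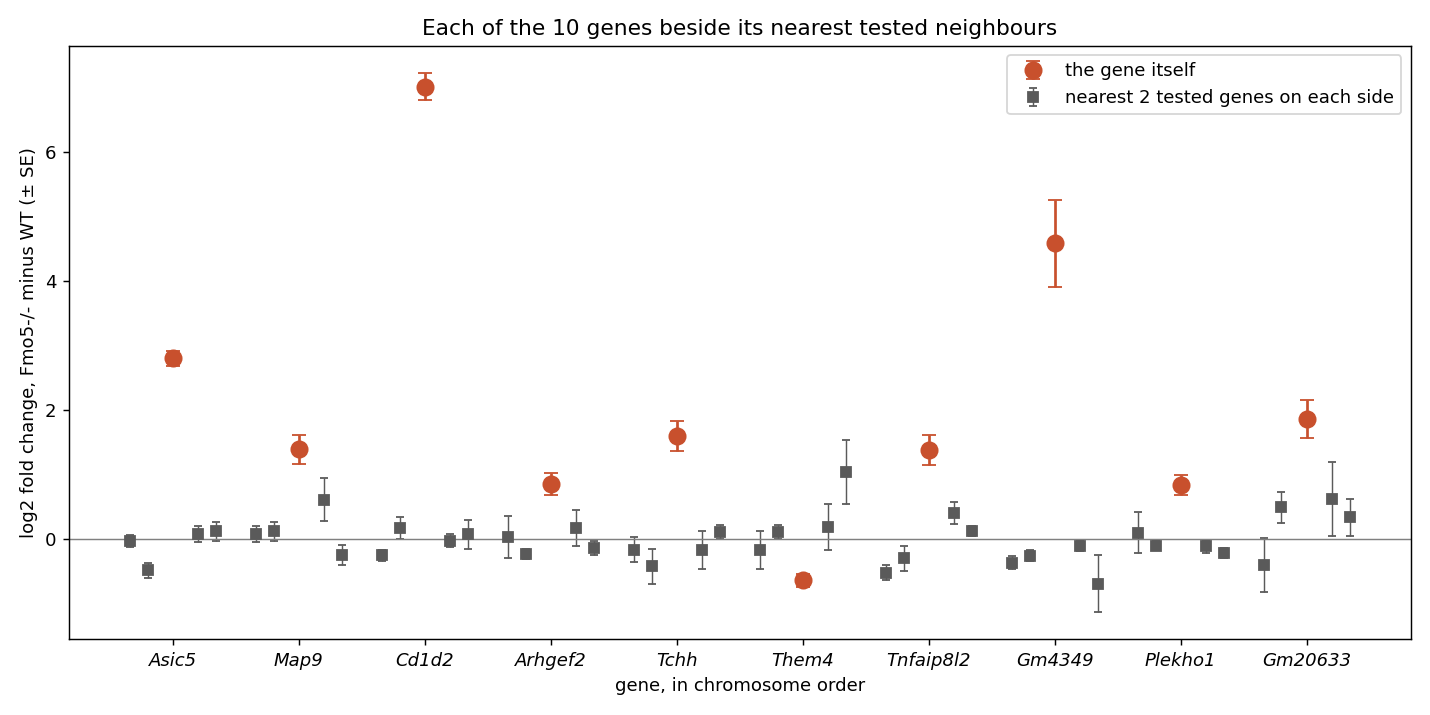
Log2 fold change ± SE (y axis) of each of the 10 genes (circles) and of the nearest 2 tested genes on each side (squares, in chromosome order) for each gene on the x axis. No square was called by edgeR, and the squares lie between -0.69 and 1.05.

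Within 20 Mb of *Fmo5*, the 10 genes and *Fmo5* included, edgeR called 19 of 428 tested genes (4.44%). Of the 417 tested genes there other than the 10 and *Fmo5*, edgeR called 8 (1.92%), 3 higher and 5 lower, a share made smaller by taking out genes chosen for their change. Other fits covered other sets of genes there. DESeq2 called 54 of the 394 to which it gave an adjusted p (13.7%, against 8.93% over all genes), and edgeR without the filter 68 of 810 (8.40%, against 5.82%), again without the 10 and *Fmo5*. On the other chromosomes, with nothing taken out, edgeR called 189 of 15863 (1.19%). On chromosome 3 beyond 20 Mb it called 21 of 438 (4.79%), 5 higher and 16 lower. These shares were not tested against each other. Before *Fmo5*, where all 10 genes lie, edgeR called 13 of 266 genes (4.89%) with the 10 counted and 3 of 256 (1.17%) without them. After it edgeR called 5 of 161 (3.11%). In the 5 Mb just before *Fmo5*, 6 of 109 tested genes were called, and all 6 were among the 10 described. The 10 were chosen for their change within 20 Mb of *Fmo5*, so that count reflects the choice and nothing is read from it.

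Of the 8, *Etfdh*, *Tlr2* and *Rps3a1* lie before *Fmo5*. *Tlr2*, a receptor for bacterial lipoproteins on myeloid cells, had 83.7, 100.4 and 93.0 normalised counts in WT and 333, 381 and 193 in Fmo5-/- livers. Its log2 fold change was 1.71 ± 0.25 (SE, edgeR adjusted p = 0.0208). *Rps3a1*, which encodes a protein of the small ribosomal subunit, fell from 9166 ± 466 to 4553 ± 118 normalised counts (SD, n = 3 per group, edgeR adjusted p = 0.000845). It has near-identical copies elsewhere, so its level is uncertain. *Etfdh*, an electron carrier of fatty acid oxidation, had a log2 fold change of -0.51 ± 0.10 (SE, edgeR adjusted p = 0.0493).

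The 5 that lie after *Fmo5* were *Hsd3b3*, *Capza1*, *St7l*, *Gstm3* and *A930005H10Rik*. *Hsd3b3*, a hydroxysteroid dehydrogenase gene 1.09 Mb beyond *Fmo5*, fell from 8111 ± 588 to 3175 ± 487 normalised counts (SD, n = 3 per group, edgeR adjusted p = 0.0016). *Gstm3*, a glutathione transferase gene, rose by 0.85 ± 0.15 on the log2 scale (SE, edgeR adjusted p = 0.043). *A930005H10Rik* rose by 1.04 ± 0.12 (SE, edgeR adjusted p = 0.00871) and *St7l*, which adjoins *Capza1*, had a log2 fold change of -0.47 ± 0.09 (SE, edgeR adjusted p = 0.0494).

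At the edge of the 20 Mb, the called genes farthest out were *A930005H10Rik* at 18.2 Mb and *Etfdh* at 18.0 Mb, and the next called genes outside lay at 28.0 and 30.2 Mb. A large change was not enough for a call. Of the 417 genes 27 (6.47%) had an absolute log2 fold change above 1, against 661 (3.95%) of all tested genes, 20 higher and 7 lower, and 5 of these were called. *Selenbp2*, a selenium-binding protein gene 2.92 Mb before *Fmo5*, had 3818, 26125 and 23009 normalised counts in WT and 177, 202 and 453 in Fmo5-/- livers. Its log2 fold change was -6.00, but the WT libraries were spread widely and the edgeR adjusted p was 0.0736. *Mtmr11*, 1.46 Mb before *Fmo5*, had 51.9, 45.8 and 117 normalised counts in WT and 233, 231 and 208 in Fmo5-/- livers (edgeR adjusted p = 0.0531). These last 2 genes were singled out after their values were seen.

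**Figure D5:**
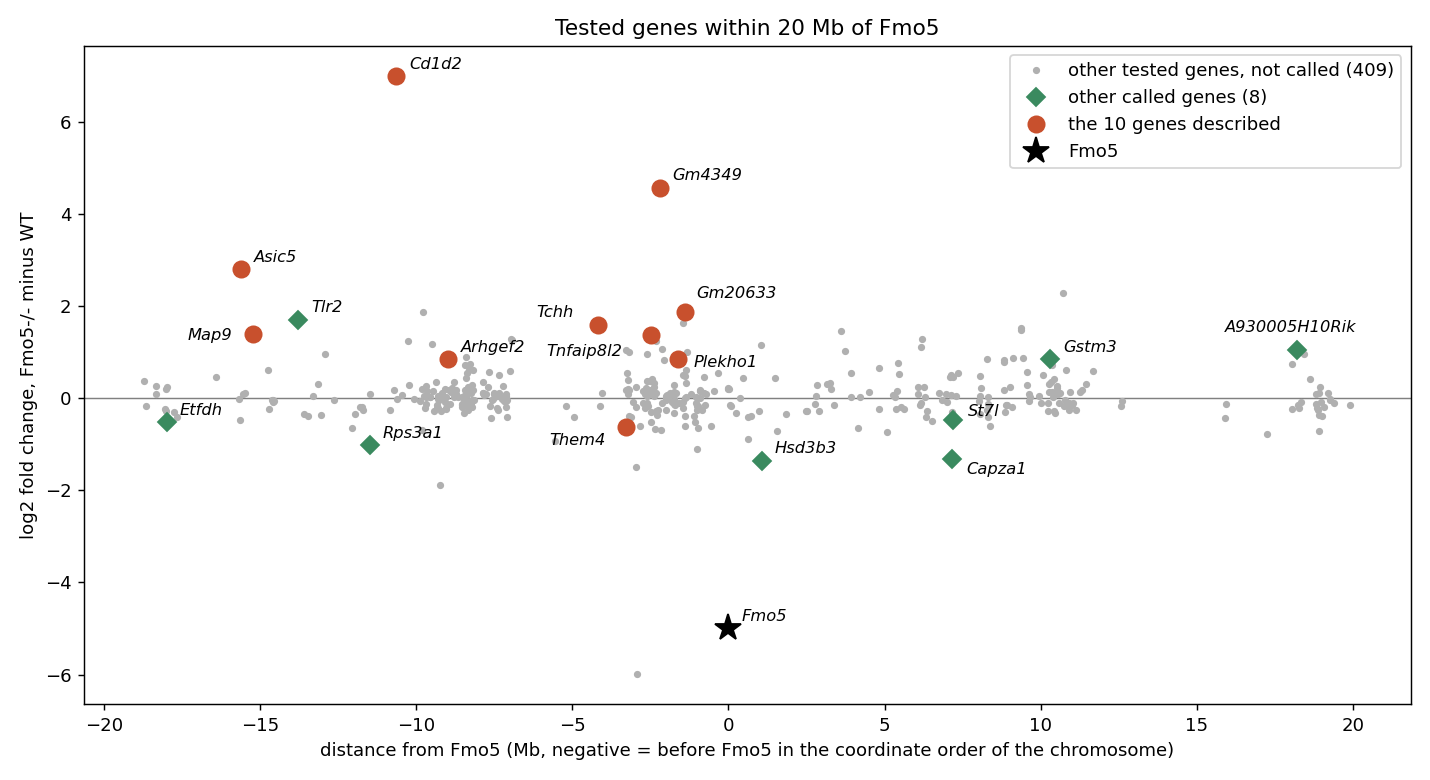
Log2 fold change, Fmo5-/- minus WT (y axis), of the 428 tested genes within 20 Mb of *Fmo5* against their distance from it in Mb (x axis, negative before *Fmo5*). The 10 genes described (circles) all lie before *Fmo5*, 8 other called genes (diamonds) lie on both sides, and the unlabelled point near -6 is *Selenbp2*.

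The genes whose level followed the mean pattern of the 9 higher genes most closely over the 6 libraries were *Prc1*, *Rps3a3*, *Ddx60*, *9930111J21Rik2* and *Ak7*, with Pearson r of 0.999 to 0.995. For *Them4* they were *Tfpi2*, *Elmod3*, *Pon2*, *Hars* and *1810062G17Rik*, with r of 0.996 to 0.989. *Rps3a3*, on chromosome 13, had a mean of 25.8 normalised counts in WT and 2088 in Fmo5-/- livers, and it is a copy of *Rps3a1*, which was lower. *1810062G17Rik*, on chromosome 3, went from 41.2 to 8.09. In all 163 genes followed the higher pattern and 82 that of *Them4* with r above 0.95. With 3 libraries in each genotype such values mostly describe the difference between genotypes, and they share the same libraries. Among the 50 most alike, 5 lay on chromosome 3 for each pattern, 10% against 5.18% of all tested genes.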

How the data were processed

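Liver RNA of 3 WT and 3 Fmo5-/- mice was sequenced as single 75-base reads from mRNA libraries. Reads were aligned by the authors (STAR, mm10), and the deposited files hold raw counts per gene, for both strands together and for each strand (whole numbers). The annotation release is not given in the sources used here. A deposited table holds normalised counts (the signal unit here), which equal the raw counts divided by 1 factor per library and were used only for that check. The normalised read counts and CPM given in the text were computed from the raw counts with TMM-scaled library sizes. It also holds the authors' comparison columns, which are a log2 fold change, p-values and a test statistic (a score), and none of these was used. Rows of reads not assigned to genes stayed out of library sizes, and 66.2% to 69.2% of reads were counted on genes.

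Counts of both strands were tested with edgeR 4.0.16 in R 4.3.3 (filterByExpr with a minimum count of 10, TMM scaling, robust quasi-likelihood test, Benjamini-Hochberg adjustment over 16734 genes, call at adjusted p under 0.05), which left a biological coefficient of variation of 15.0%. The scripts were tested on simulated data. Positions came from GENCODE vM21 (GRCm38, equal to mm10), which matched 54409 of 54446 identifiers. Alternatives were DESeq2 1.42.0, RLE scaling, TMM without the 20 most abundant genes, no filter, each strand alone, each library left out, and windows of 10 and 40 Mb. No other labels mark batches. The members and the gene lists (8 of pathways, 10 of cell type markers) were chosen with earlier results of these data known. Genes named are the 10 members, *Fmo5*, called genes within 20 Mb, called genes adjacent to members or in a list, the 5 genes most like each pattern, and genes named as examples of a list, for sequence shared with a member or as singled out.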

Additional observations from a re-analysis of the deposited data

How the results depend on the processing

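All 10 genes kept the direction of their log2 fold change under every alternative that gave a value, except *Gm20633* on the first strand (-0.031). *Gm4349* was below the filter on each strand and gave no value there. edgeR called all 10 genes with RLE scaling, with TMM scaling without the 20 most abundant genes and without the filter. DESeq2 called 9 (not *Gm4349*), the second strand 8 and the first strand 6. Over all genes edgeR called 244 with RLE scaling, 255 with TMM without the 20 most abundant genes and 1989 without the filter. DESeq2 called 1396 over all genes. On the second strand edgeR called 241 and on the first 328, against 229 with both strands counted together. The number of the 10 that were called depended on single libraries, with a range of 2 to 10. It was 3, 4 and 6 without WT libraries 1, 2 and 3, and 2, 6 and 10 without Fmo5-/- libraries 1, 2 and 3. In the same order, edgeR called 62, 82 and 148, and 31, 106 and 763 genes in all. *Asic5* and *Cd1d2* were called in all 6 of these fits, *Arhgef2*, *Tnfaip8l2* and *Plekho1* in 1. The count ratio of *Gm4349* was 6.42 on the second strand, an alternative chosen after seeing the data.

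DESeq2 called 1396 genes in all, 64 within 20 Mb, 54 of them outside the 10 and *Fmo5*, and 3 adjacent genes. Without the filter edgeR called 1989, 79, 68 and 4. On the first strand 13 others within 20 Mb were called. Leaving out a library gave 31 to 763 called genes, 8 to 28 within 20 Mb, 5 to 17 of them others, and 5770 to 7160 genes not overlapping. A window of 10 Mb held 11 called genes, 3 of them others, and one of 40 Mb held 29 and 18. The others called were 3 of 309 tested (0.97%) within 10 Mb and 18 of 590 (3.05%) within 40 Mb. Within 20 Mb they were 8 of 417 (1.92%), against 1.37% over all genes. The cause was not tested. No paired analysis was possible because the labels carry no replicate numbers. With 3 mice per group, an absent call does not show that a gene was unchanged.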
